A study of Macaca mulatta with 20 samples.

Results

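Inflammasome sensors and inflammatory caspases were followed in the whole blood of rhesus macaques (Macaca mulatta) before and after X-ray irradiation of the thorax. The 9 genes were taken by name. They are the sensors NAIP, NLRC4, NLRP3, AIM2 and MEFV, the adaptor PYCARD and the caspases CASP1, CASP4 and CASP5. They are 9 of the 25992 different gene names and accessions that label the probes of the array, and 12 of its 34127 different probes read them. Of these, 10 probes, which cover all 9 genes, were well above background on at least 5 of 20 arrays, a filter that 19961 probes passed in all.

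The study asked how gene expression in blood responds over a month to irradiation of part of the body. Globin-depleted RNA from blood drawn into PAXgene tubes was hybridized to 20 one-colour Agilent human arrays, 5 from before irradiation and 5 each from 2, 5 and 30 days after 10 Gy to the thorax. The animals were male macaques of Chinese origin, 8 of them by the labels, and their ages are given for the study as a whole and not for each array. By the study's methods the comparisons are paired within animals, and 1 sample is a pool across animals. The labels do not say which array that is, and each group is numbered from replicate 1 to replicate 5. No array analysed here comes from an unirradiated animal on the later days, so that irradiation and time in the study cannot be told apart.

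An inflammasome is a protein platform that assembles in the cytosol when a sensor meets a microbial product or a sign of cell damage. Sensors draw in the adaptor ASC, which PYCARD encodes, or bind caspase-1 directly, and caspase-1 then cuts the precursors of interleukin-1 beta and interleukin-18 and the pore protein gasdermin D. Caspases 4 and 5 bind bacterial lipopolysaccharide themselves and also cut gasdermin D. In blood these genes are used mostly by monocytes and neutrophils, the cells that take up bacteria.

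The probes were designed on human transcripts, and the array header places them on the human build hg19. The NLRC4 probe lies at chr2:32449703-32449762, 1 of the NLRP3 probes (A_33_P3281695) at chr1:247611747-247611806 and the AIM2 probe at chr1:159033306-159033365. The PYCARD probe lies at chr16:31212970-31213029. On chromosome 11 the CASP4 probe lies at chr11:104815492-104815551, the CASP5 probe at chr11:104868142-104868201 and the CASP1 probe at chr11:104897058-104897602, where its 60 bases span 545 bases of the genome and so cross an intron. The NLRP3 probe is on the plus strand and the others are on the minus strand. These sequences are shown because each value below is the signal of macaque RNA on a human sequence of this kind.
NLRC4: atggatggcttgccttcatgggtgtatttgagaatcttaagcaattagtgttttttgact
NLRP3: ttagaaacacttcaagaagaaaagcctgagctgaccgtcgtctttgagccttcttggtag
AIM2: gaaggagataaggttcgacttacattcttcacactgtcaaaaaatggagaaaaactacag
PYCARD: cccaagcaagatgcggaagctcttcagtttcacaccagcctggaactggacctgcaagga
CASP1: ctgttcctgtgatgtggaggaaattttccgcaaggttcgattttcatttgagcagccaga
CASP4: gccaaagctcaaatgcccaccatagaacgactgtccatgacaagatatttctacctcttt
CASP5: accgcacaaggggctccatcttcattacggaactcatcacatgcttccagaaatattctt

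The remaining probes that passed lie at chr5:70264591-70264650 (NAIP, minus strand), chr16:3292776-3292835 (MEFV, minus strand) and chr1:247612029-247612089 (the second NLRP3 probe, A_23_P9883, plus strand). No more than 25 bases matched between any of the member probes with no gaps allowed, for NAIP with NLRC4 (of 55 aligned bases) and for NAIP with CASP5 (of 58). How well each probe matches the macaque transcript was not tested, and neither was binding to a related transcript such as that of CASP4 by the CASP5 probe. For that reason the level of 1 gene is never set against that of another here. Levels are on the log2 scale relative to the 75th percentile of the array, so that a value of 0 is a probe as bright as that percentile.

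No member probe passed the test on any day. A probe was called at an unadjusted p under 0.005 together with a Benjamini-Hochberg false discovery rate (FDR) under 10% in limma, in a model that holds the replicate number as a block. At this rule 0 of 10 member probes were called on day 2, against 0.0601% of the 19961 probes tested. The counts were 0 of 10 on day 5 and 0 of 10 on day 30, where 0% of all probes were called on either day. The smallest adjusted p-values of a member in limma were 0.210 for NAIP on day 2, 0.289 for NAIP on day 5 and 0.143 for CASP4 on day 30. All groups overlapped for every member probe on every day. The values below are therefore given as measured differences and not as changes.

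The members lay mostly on 1 side of their pre-irradiation level. All 10 probes had a higher mean on day 2, 9 of 10 on day 5 and 10 of 10 on day 30, when 44.9%, 54.7% and 47.4% of all probes were higher. Taken over arrays of the same replicate number, 46 of 50 values were higher on day 2, 36 of 50 on day 5 and 45 of 50 on day 30. The median difference over the 9 genes was 0.54 ± 0.32 (SD over 5 pairs) on day 2, 0.45 ± 0.42 on day 5 and 0.77 ± 0.54 on day 30 on the log2 scale. The median over all probes was -0.04, 0.03 and -0.02 on these days. At an unadjusted p under 0.05 in limma, 9 of 10 member probes were higher on day 2, against 15.0% of all probes in either direction. On day 5 the count was 3 of 10 against 11.2%, and on day 30 it was 6 of 10 against 17.5%. At an unadjusted p under 0.005 the counts were 0 of 10 against 2.55% on day 2, 1 of 10 against 1.58% on day 5 and 2 of 10 against 3.14% on day 30. The NLRC4 probe is near background and passed the filter largely through days 2 and 30, where its mean signal is highest, so its place among the tested probes is not independent of these differences. Without it the counts at an unadjusted p under 0.05 were 8 of 9 on day 2, 3 of 9 on day 5 and 5 of 9 on day 30. The 3 comparisons share the pre-irradiation arrays, and the 9 genes are measured in the same blood, so these counts are not independent of each other.

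The count of day 2 rested on single replicates and on the processing. Without replicate 4 it was 2 of 10 and without replicate 1 it was 4 of 10. With the normexp background correction it was 2 of 10, and without the replicate block it was also 2 of 10. The normexp correction moved the median of all probes to 0.17 on day 2 and to 0.11 on day 30. On day 2 the median of the member genes was then 0.17 as well, level with all probes, and 3 of 5 sensors, 0 of 1 adaptor and 1 of 3 caspases lay above that shift. On day 30 the members' median under normexp was 0.48, which is 0.37 above all probes, and 4 of 5 sensors, the adaptor and 3 of 3 caspases lay above the shift. The count of day 5 was 6 of 10 without replicate 3 and 1 of 10 without any of replicates 1, 2 and 4. The count of day 30 stayed between 6 and 7 when any 1 replicate was left out, and ran from 4 to 8 over all 17 alternatives.

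**Figure D1:**
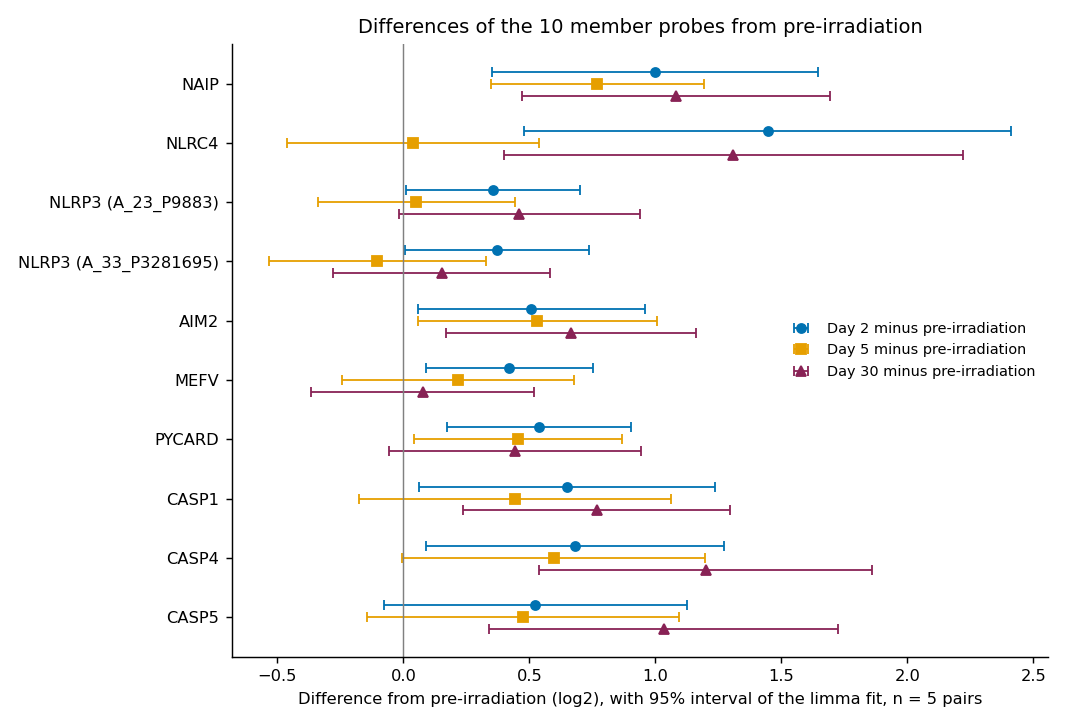
Log2 difference of each member probe from pre-irradiation on days 2, 5 and 30 (horizontal axis), with the 95% interval of the limma fit over 5 pairs, 1 row per probe. Nearly all points lie to the right of 0, the intervals are wide, and the largest value at 30 days among the probes bright on all arrays is that of CASP4, at 1.20.

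Markers of blood cells moved in the same samples. The 8 neutrophil genes that could be tested of 9 listed, among them CSF3R and CXCR2, were all higher on each day, with median log2 differences of 1.01, 0.53 and 0.73 on days 2, 5 and 30 and with 5, 5 and 4 of 8 at an unadjusted p under 0.05. Their summed level ranged from 127 to 352.4 before irradiation and from 250.2 to 761 on day 2, where 1 is the 75th percentile of an array. On day 5 it ranged from 182.5 to 596.6 and on day 30 from 215.7 to 927.5. The 8 monocyte genes tested of 9 listed, among them CD14 and CSF1R, were also all higher on each day, with medians of 0.61, 0.39 and 0.63 and with 5, 3 and 5 of 8 at an unadjusted p under 0.05. Their summed level ranged from 90.2 to 266.1 before irradiation, from 185.3 to 333.3 on day 2, from 96.3 to 300.3 on day 5 and from 183.3 to 351 on day 30.

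With normexp 7 of 8 genes of either list were higher on day 2. The neutrophil median was then 0.51 and the monocyte median 0.16, where that of all probes was 0.17. Above that shift lay 6 of 8 neutrophil genes and 3 of 8 monocyte genes.

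Most genes of lymphoid cells lay on the other side. All 9 T cell genes, among them CD3D and CD28, were lower on each day, with medians of -0.63, -0.31 and -0.32 and with 6, 3 and 3 of 9 at an unadjusted p under 0.05. All 7 NK cell genes were lower on days 2 and 5 and 4 of 7 on day 30, with medians of -1.34, -0.77 and -0.10 and with 7, 4 and 0 of 7 at an unadjusted p under 0.05. Of the 6 B cell genes tested of 7 listed, 6, 6 and 5 were lower, with medians of -0.50, -0.49 and -0.49 and with 4, 5 and 3 of 6 at that p. The 6 platelet genes tested of 7 listed had medians of 1.46, 0.45 and -0.27, with 6, 2 and 0 of 6 at that p, and the 7 erythroid genes -0.12, 0.08 and -0.88. FCGR3B and LYZ have no probe here. No marker gene was called against pre-irradiation, and between the later days 1 was, the NK cell gene KLRD1, which was 1.43 higher on day 30 than on day 2 (SE 0.16, adjusted p = 0.0940 in limma). The members' differences and those of neutrophil and monocyte markers thus point the same way, and the part of cell numbers in the members' values was not tested. In whole blood, more cells of a type and more RNA per cell cannot be told apart.

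**Figure D2:**
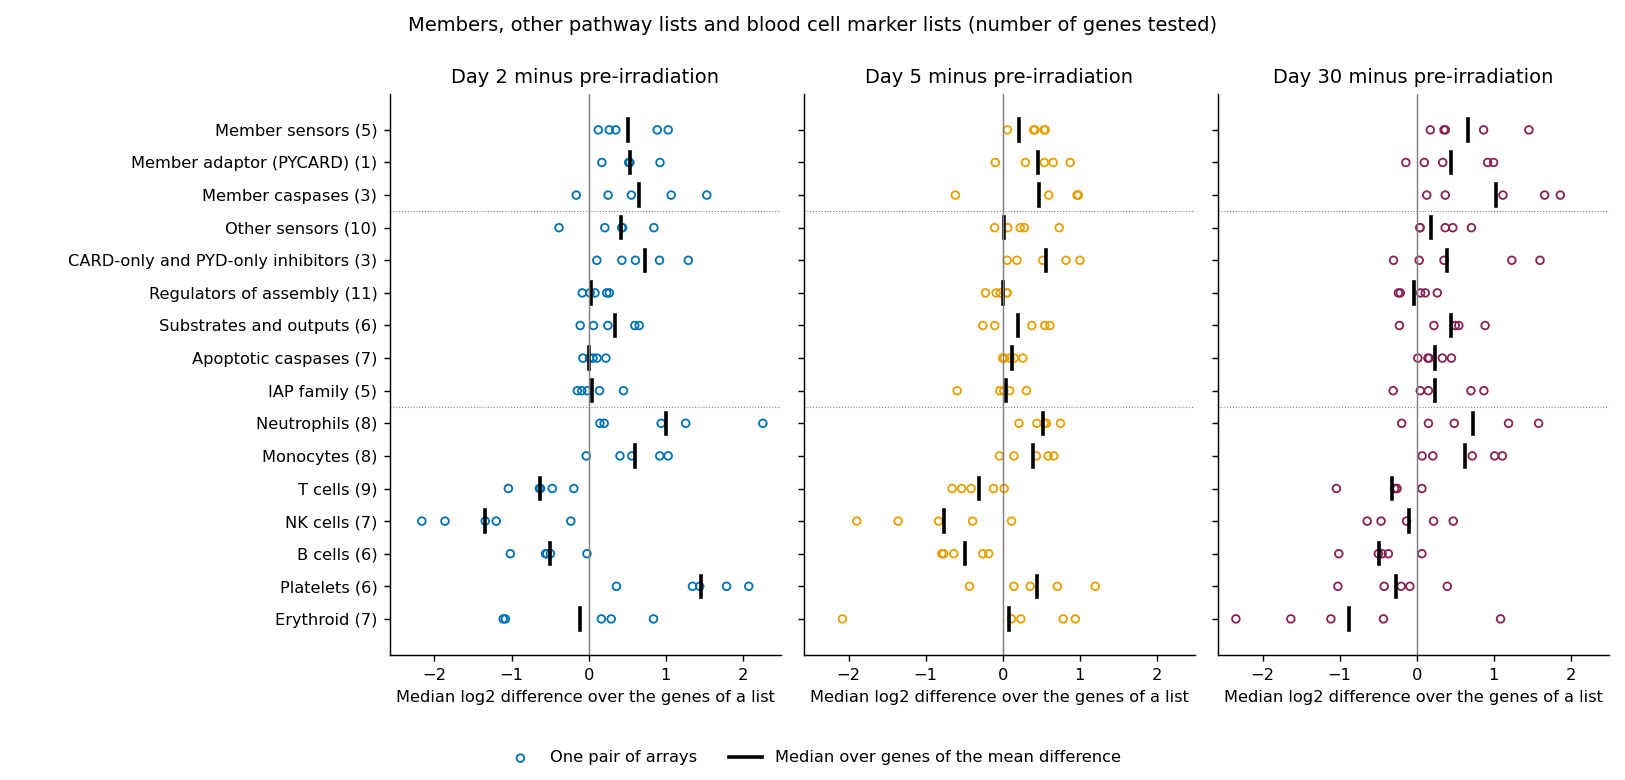
Median log2 difference from pre-irradiation over the genes of each list (horizontal axis), for days 2, 5 and 30, with circles for the 5 pairs and a bar for the median over genes of the mean difference. The member lists, the neutrophil list and the monocyte list lie to the right of 0 and the T cell and B cell lists to the left, and the circles of a list are spread widely.

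NAIP, the partner of NLRC4, binds bacterial flagellin and parts of bacterial secretion systems. It was higher in every pair on all 3 days, as were the member AIM2 and, among the sensors that are not members, NOD2. Before irradiation the NAIP level was -0.14, 0.28, 0.09, -1.47 and 0.54 in replicates 1 to 5. On day 2 it was 0.97, 0.43, 1.79, 0.30 and 0.81, and on day 30 it was 1.33, 1.17, 0.26, 0.58 and 1.37. Replicate 4 was the lowest array before irradiation and had the largest differences, and the groups overlap because replicates 2 and 5 were already near the later levels.

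On day 2 NAIP was 1.0 higher on the log2 scale (SE 0.28, unadjusted p = 0.00747, adjusted p = 0.210 in limma), and 0.57 with normexp. On day 5 the 5 levels were 1.02, 0.72, 0.44, -0.29 and 1.25, and the difference was 0.77 (SE 0.18, unadjusted p = 0.00313, adjusted p = 0.289 in limma). At 30 days it was 1.08 higher, a 2.12-fold difference (SE 0.27, unadjusted p = 0.00331, adjusted p = 0.147 in limma). Leaving out replicates in turn gave 0.84 to 1.31 at 30 days, with the lowest value without replicate 4. The probe is printed 10 times on each array, and the SD between its spots was 0.05 in the median, so the scatter between arrays is far wider than that between spots. The other NAIP probe (A_33_P3346461) was not well above background on any pre-irradiation array and on 1, 2 and 1 of 5 arrays on days 2, 5 and 30, and no fold is given for it.

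NLRC4, the partner of NAIP, which builds the wheel that activates caspase-1, had the widest scatter between pairs on days 2 and 30. Its probe was well above background on 1, 3, 1 and 3 of the 5 arrays before irradiation and on days 2, 5 and 30, so most of its levels are at the floor of the measurement and the differences below have no exact size. Before irradiation the levels were -5.26, -4.27, -4.92, -5.48 and -3.77. On day 2 they were -4.37, -4.44, -1.72, -3.69 and -2.25, and the mean was 1.45 higher (SE 0.42, unadjusted p = 0.00881, adjusted p = 0.220 in limma, higher in 4 of 5 pairs).

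The pairs of day 2 differed by 0.89, -0.17, 3.20, 1.79 and 1.52, so that replicate 3 had the largest difference and replicate 2 went the other way. With the pre-irradiation arrays raised to the lowest signal that counts as well above background on each, which was tried after the values were seen, the difference of day 2 was 0.60 and that of day 30 was 0.46. With normexp these differences were 0.74 and 0.48. Without replicate 3 the day 2 difference was 1.01, and without replicate 2 it was 1.85 and passed the rule (adjusted p = 0.0844 in limma). Without replicate 2, 2.95% of all probes passed it on day 2, against 0.0601% with all 5 replicates. On day 5 the NLRC4 difference was 0.04 (SE 0.22, 95% interval -0.46 to 0.54, higher in 3 of 5 pairs). At 30 days the levels were -1.96, -3.88, -4.54, -4.25 and -2.53, and the difference was 1.31 (SE 0.40, unadjusted p = 0.0103, adjusted p = 0.178 in limma, higher in 5 of 5 pairs). Replicate 1 stood out on that day, and without it the difference was 0.81. The second NLRC4 probe was well above background on 0 of 20 arrays.

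NLRP3, which responds to potassium loss and cell damage and governs interleukin-1 beta release by monocytes, had the smallest difference of the sensors on day 2. Its brighter probe (A_23_P9883) read -0.66, 0.86, 1.35, 0.23 and 0.90 before irradiation and -0.23, 0.95, 1.65, 0.89 and 1.20 on day 2. It was higher in 5 of 5 pairs on day 2, by 0.36 on average (SE 0.15, unadjusted p = 0.0440, adjusted p = 0.322 in limma). Differences between replicates were larger than this, and replicate 1 was the lowest array at every time.

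The second NLRP3 probe (A_33_P3281695) gave 0.37 on day 2 (SE 0.16, unadjusted p = 0.0466, adjusted p = 0.328 in limma). The 2 probes gave 0.05 and -0.10 on day 5, each higher in 2 of 5 pairs. On day 30 they parted, with 0.46 (SE 0.21, higher in 4 of 5 pairs) for the brighter probe and 0.15 (SE 0.19, higher in 3 of 5 pairs) for the other. Neither reached an unadjusted p under 0.05 on day 5 or day 30.

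AIM2, which binds double-stranded DNA in the cytosol, was higher in 5 of 5 pairs on each of the 3 days. Its level was 4.66, 4.14, 4.50, 3.61 and 4.97 before irradiation, 5.58, 4.27, 4.86, 4.64 and 5.07 on day 2, and 6.11, 4.51, 4.79, 4.47 and 5.32 on day 30. Replicate 1 was the highest array on day 2 and day 30, and replicate 5 alone before irradiation exceeded 3 of the 5 later levels on either day. The differences were 0.51 on day 2 (SE 0.19), 0.53 on day 5 (SE 0.20, and 0.345 without replicate 4) and 0.67 on day 30 (SE 0.22). The unadjusted p-values of AIM2 in limma were 0.0311, 0.0321 and 0.0145, and the adjusted p-values were 0.292, 0.404 and 0.193. With normexp the day 2 difference of AIM2 was 0.02, which is below the shift of all probes.

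MEFV, which encodes the sensor pyrin, had its highest mean on day 2. Before irradiation it read 0.94, 0.40, 1.33, 0.28 and 0.73, and on day 2 it read 1.39, 0.91, 1.57, 0.92 and 0.99. The day 2 mean was 0.42 higher (SE 0.14, unadjusted p = 0.0190, adjusted p = 0.254 in limma), in 5 of 5 pairs. The differences of the pairs ran from 0.24 to 0.64, the narrowest range of any member on that day. With normexp the day 2 difference was 0.10, below the shift of all probes. On day 5 the difference was 0.22 (SE 0.20, higher in 3 of 5 pairs), with 0.10 without replicate 5 and 0.35 without replicate 4. On day 30 it was 0.08 (SE 0.19, 95% interval -0.37 to 0.52, higher in 4 of 5 pairs), with -0.02 without replicate 1 and -0.01 with normexp.

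PYCARD encodes ASC, the adaptor that most of these sensors share. Its level was 3.18, 2.92, 4.13, 2.27 and 3.35 before irradiation, 3.71, 3.44, 4.31, 3.19 and 3.89 on day 2, and 4.10, 3.26, 4.23, 3.26 and 3.21 on day 30. Replicate 3 was the highest array before irradiation and hardly differed later, while replicate 4 was the lowest array and had the largest difference on days 2 and 30. On day 2 PYCARD was 0.54 higher (SE 0.16, unadjusted p = 0.00964, adjusted p = 0.223 in limma), in 5 of 5 pairs. On day 5 it was 0.45 higher (SE 0.18, unadjusted p = 0.0347, adjusted p = 0.408 in limma), in 4 of 5 pairs. The day 30 difference of 0.44 (SE 0.22) had an unadjusted p of 0.0751 and an adjusted p of 0.332 in limma. With normexp the day 2 difference was 0.07, below the shift of all probes.

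CASP1 encodes caspase-1, the protease that inflammasomes activate. It read 3.32, 3.35, 4.16, 2.27 and 3.0 before irradiation, 4.85, 3.47, 4.04, 2.92 and 4.07 on day 2, and 4.76, 3.60, 4.29, 3.39 and 3.90 on day 30. Replicate 3 was the highest array before irradiation, above 4 of the 5 arrays of day 2 and 3 of the 5 arrays of day 30. On day 2 CASP1 was 0.65 higher (SE 0.25, unadjusted p = 0.0344, adjusted p = 0.300 in limma), in 4 of 5 pairs, and the difference was 0.43 without replicate 1 and 0.14 with normexp, below the shift of all probes. On day 5 it was 0.44 higher (SE 0.27, unadjusted p = 0.137, adjusted p = 0.563 in limma). That value was 0.245 without replicate 5 and 0.70 without replicate 3, where its unadjusted p in limma was 0.0197. At 30 days CASP1 was higher in 5 of 5 pairs, by 0.77 (SE 0.23, unadjusted p = 0.00999, adjusted p = 0.177 in limma). Within slides, which pair the same arrays across different replicate numbers, the 5 differences ran from 0.03 to 1.63.

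CASP4 encodes the lipopolysaccharide receptor caspase-4 and had the smallest adjusted p of any member at 30 days. Its level was 3.93, 3.05, 4.02, 2.62 and 3.31 before irradiation, 5.51, 3.36, 3.86, 3.18 and 4.43 on day 2, and 5.80, 3.47, 4.28, 4.49 and 4.90 on day 30. At 30 days 4 of 5 arrays lay above every pre-irradiation array, and replicate 2 alone lay within the earlier range. The day 30 difference was 1.20, or 2.30-fold (SE 0.29, unadjusted p = 0.00285, adjusted p = 0.143 in limma), in 5 of 5 pairs. The pairs were uneven, at 1.87, 0.42, 0.27, 1.86 and 1.58.

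Leaving out replicates in turn gave 1.03 to 1.43 for CASP4 at 30 days, with the lowest value without replicate 1, and unadjusted p-values up to 0.0137. Within the 5 slides, each of which holds 1 array of each group, the differences were 1.43, 1.78, 2.27, -0.46 and 0.97. With the slide as a further block in a fit of all 20 arrays, CASP4 passed the rule (1.20, SE 0.17, adjusted p = 0.0722 in limma). On day 2 CASP4 was 0.68 higher (SE 0.26, unadjusted p = 0.0291, adjusted p = 0.287 in limma), and on day 5 it was 0.60 higher (SE 0.26, unadjusted p = 0.0514, adjusted p = 0.447 in limma), each in 4 of 5 pairs. Replicate 3 was the pair below 0 on both days. Without it the day 5 difference was 0.90, and with normexp the day 2 difference was 0.175, about the shift of all probes.

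CASP5, the neighbour and close relative of CASP4, followed it from array to array. It read 0.66, -0.15, 1.0, -0.75 and 0.20 before irradiation, 2.06, 0.10, 0.55, -0.26 and 1.12 on day 2, and 2.32, 0.22, 1.0, 1.26 and 1.32 on day 30. Again replicate 1 was the highest later array, and replicate 3 read about the same at 30 days as before. At 30 days CASP5 was 1.03 higher, or 2.05-fold (SE 0.30, unadjusted p = 0.00848, adjusted p = 0.170 in limma), in 5 of 5 pairs, of which replicate 3 differed by 0.0013. Leaving out replicates in turn gave 0.79 to 1.29, with the lowest value without replicate 4. On day 2 the difference was 0.52 (SE 0.26, unadjusted p = 0.0799, adjusted p = 0.388 in limma) and was 0.30 without replicate 1 and 0.17 with normexp. On day 5 the difference was 0.47 (SE 0.27, unadjusted p = 0.115, adjusted p = 0.546 in limma), and 0.78 without replicate 3.

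Replicate 1 had the largest day 2 differences of all 3 caspases, and this replicate and replicate 2 had high interferon-stimulated genes on that day. A list of 10 such genes, among them ISG15 and MX1, was added after the values were seen, and 9 of them could be tested. Their median differences on day 2 were 4.56, 2.90, -0.45, -0.68 and 0.51 in replicates 1 to 5. On day 5 they were 2.19, 1.275, -1.17, 1.24 and -1.24, and at 30 days they were 1.03, 1.45, -0.71, -0.97 and 0.71. Replicate 4, whose CASP4 and CASP5 differences at 30 days were 1.86 and 2.01, had an interferon value of -0.97 on that day and 1.24 on day 5. The part of these genes in the caspase values was not tested.

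**Figure D3:**
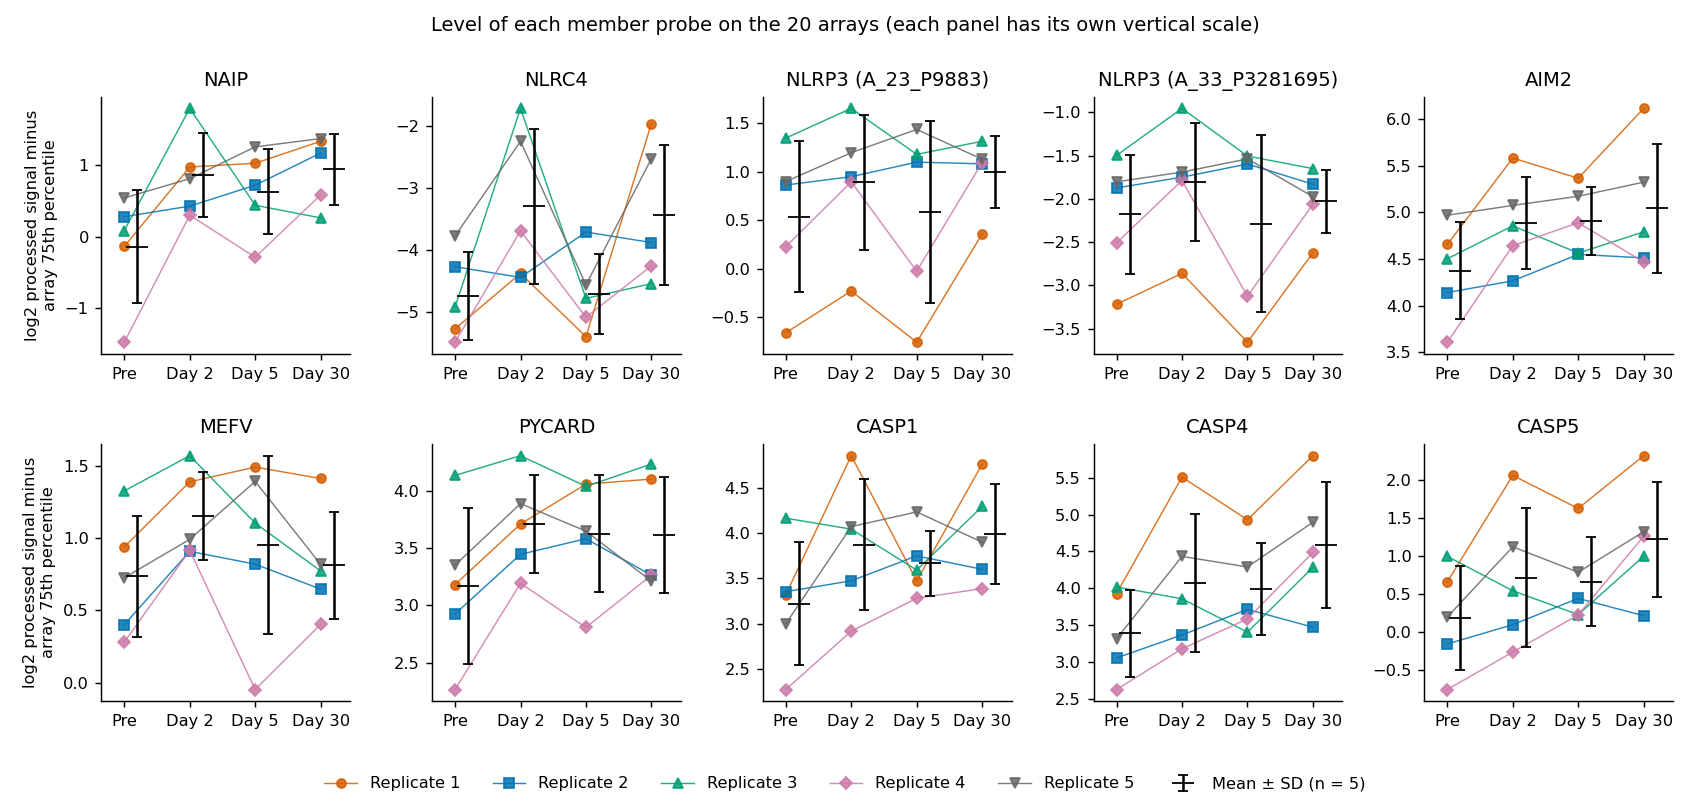
Level of each of the 10 member probes (log2 processed signal minus the array's 75th percentile, vertical axis, 1 scale per panel) before irradiation and on days 2, 5 and 30, with 1 line per replicate number and the mean ± SD of 5 arrays. The lines of the replicates overlap at all times, and the CASP4 mean runs from 3.39 before irradiation to 4.59 on day 30.

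The pre-irradiation mean was the lowest in 9 of 10 probes, and the exception was the dimmer NLRP3 probe, whose lowest mean was on day 5. The highest mean was on day 30 in 6 probes, those of NAIP, CASP1, CASP4, CASP5 and AIM2 and the brighter NLRP3 probe. It was on day 2 in 4 probes, those of NLRC4, PYCARD and MEFV and the dimmer NLRP3 probe, and on day 5 in none. The order of days 2 and 5 depended on the background correction. The median difference of the member genes, day 5 minus day 2, was -0.20 in log2 on the processed signal and 0.245 with normexp, where that of all probes was -0.13. With normexp AIM2 was 0.50, PYCARD 0.39 and MEFV 0.098 higher on day 5 than on day 2, none past the test, and these 3 then had their highest mean on day 5. NLRC4 and both NLRP3 probes were still lower on day 5 than on day 2, and the highest mean stayed on day 30 in 5 probes, those of NAIP and the 3 caspases and the brighter NLRP3 probe. No neighbouring times in these orders passed the test for any probe, and their groups overlapped.

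The later days were also compared with each other. No member was called between days 2 and 5, where 0% of all probes were called, between days 2 and 30, where 0.0501% were called, or between days 5 and 30, where 0% were called. At an unadjusted p under 0.05 in limma, 1 of 10 probes differed between days 2 and 5 against 3.56% of all probes, 1 of 10 between days 2 and 30 against 12.8%, and 3 of 10 between days 5 and 30 against 8.48%. Each of these counts changed when single replicates were left out, to 0 without replicate 3 or 5 for days 2 and 5, to 0 without replicate 4 or 5 and 2 without replicate 1 for days 2 and 30, and to 0 without replicate 1 or 5 and 1 without replicate 3 or 4 for days 5 and 30.

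NLRC4 was the only probe counted between days 2 and 5 and 1 of those counted between days 5 and 30, with a signal well above background on 1 of 5 arrays on day 5. It passed the filter largely through days 2 and 30, where its mean signal is highest. Its place in these counts is therefore not independent of the differences. Its mean signal was 1.41 lower on the log2 scale on day 5 than on day 2 (adjusted p = 0.972 in limma), in 4 of 5 pairs, and 1.27 higher on day 30 than on day 5 (adjusted p = 0.565 in limma), again in 4 of 5 pairs. With the day 5 arrays raised to the floor these differences were 0.60 and 0.47 in size, and the latter was 0.73 without replicate 1. CASP4 was 0.52 higher on day 30 than on day 2, in 5 of 5 pairs (SE 0.20, unadjusted p = 0.0333, adjusted p = 0.365 in limma), with 0.32 without replicate 4 and 0.90 with normexp. It was 0.60 higher on day 30 than on day 5, in 4 of 5 pairs (SE 0.22, unadjusted p = 0.0247, adjusted p = 0.563 in limma). CASP5 was 0.56 higher on day 30 than on day 5, in 4 of 5 pairs (SE 0.22, unadjusted p = 0.0323, adjusted p = 0.579 in limma). Both caspases thus had their highest mean at the last time. The adaptor differed by -0.01 between days 5 and 30 (SE 0.20, 95% interval -0.46 to 0.44).

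**Figure D4:**
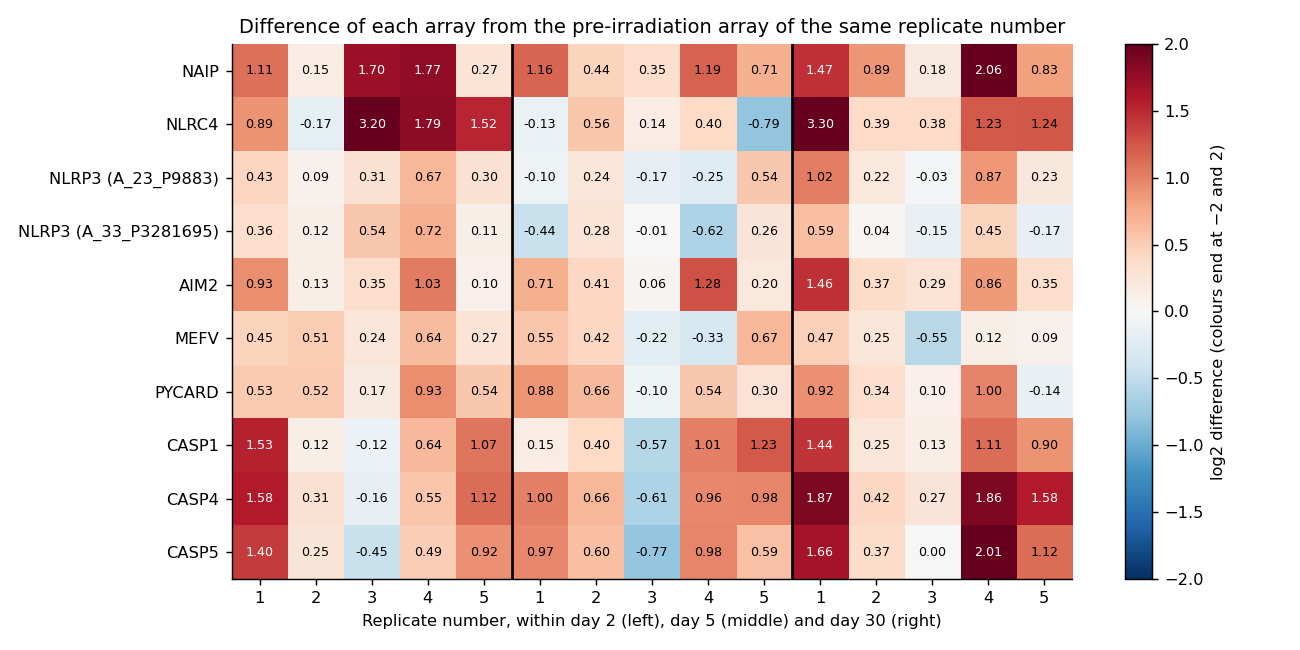
Difference of each later array from the pre-irradiation array of the same replicate number, for 10 member probes (rows) and replicates 1 to 5 on days 2, 5 and 30 (columns), on a log2 colour scale that ends at -2 and 2. Replicates 1 and 4 are dark on day 30 for the caspases, and replicate 3 is pale or below 0 for them on every day.

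Within each day the values of single replicates spread more widely than the day values of 0.54, 0.45 and 0.77. The day values rest on means of 5 pairs, which vary less than single values, so the 2 spreads are not like measures. The median difference over the 9 genes was 0.93, 0.15, 0.24, 0.67 and 0.54 for replicates 1 to 5 on day 2. On day 30 it was 1.46, 0.37, 0.13, 1.11 and 0.83. Replicates 1 and 4 had the largest medians and replicates 2 and 3 the smallest on both days. On day 5 the medians were 0.71, 0.44, -0.17, 0.96 and 0.59, and in replicate 3 only 3 of 10 probes were higher while 59.9% of all probes were. The day 5 array of replicate 3 also had the largest share of spots well above background, 67.3% where the other arrays lay at 58.8% or less, and what this did to its values was not tested.

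The members varied together over the 20 arrays, differences between days included, to different degrees. After centring each gene within its replicate number, the 36 pairs of genes had Pearson correlations from 0.15 to 0.98 over the 20 arrays, all above 0, with a median of 0.59. CASP4 and CASP5 were the closest pair at 0.98, followed by CASP1 and CASP4 at 0.86 and CASP1 and CASP5 at 0.82. MEFV stood apart from the caspases and AIM2, with correlations of 0.25 with CASP1, 0.20 with CASP4, 0.15 with CASP5 and 0.25 with AIM2, and came closest to PYCARD at 0.59. The centring leaves the differences between the days in the values. Genes that were all lower before irradiation therefore correlate above 0 in part for that reason. The same correlations between other probes were not taken as a background. The correlations describe arrays that share animals, slides and blood cell composition, and no test was made of them.

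**Figure D5:**
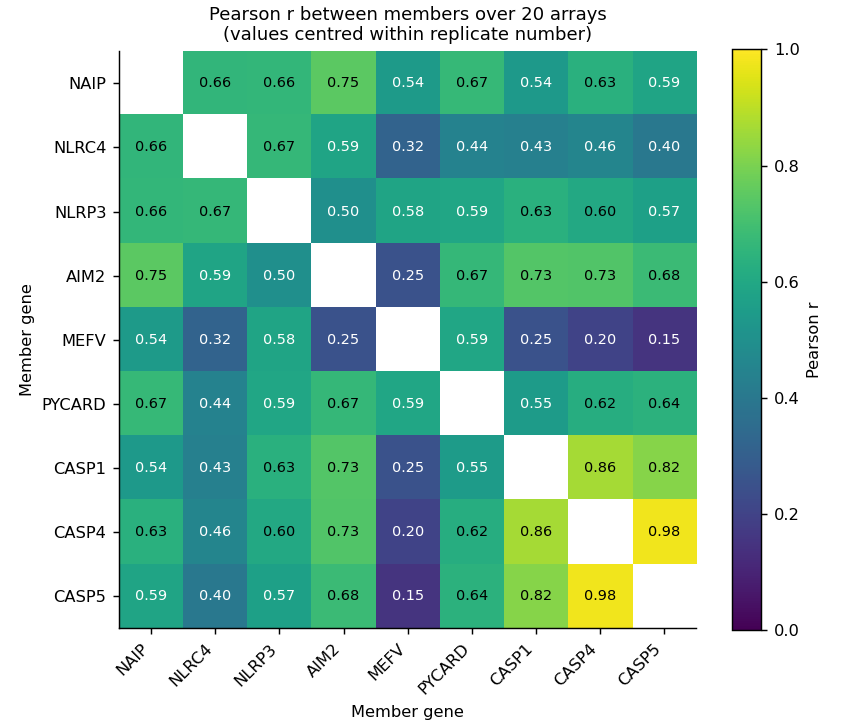
Pearson correlation between the 9 member genes over 20 arrays, each gene centred within its replicate number (both axes list the genes, and the colour and printed number give r). The block of CASP1, CASP4 and CASP5 holds the highest values, 0.82 to 0.98, and MEFV against the caspases the lowest.

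The genes whose pattern was most like the mean of the members, by the same correlation over 20 arrays, were RFWD2 (0.95), IDO1 (0.94), GSAP (0.93), KCNE3 (0.93) and MNDA (0.92). IDO1 encodes an enzyme that breaks down tryptophan, RFWD2 a ubiquitin ligase, KCNE3 a potassium channel subunit and MNDA a nuclear protein of myeloid cells from the same family as AIM2. They are named for likeness only. They were picked as the highest among tested genes that are not members, and probes labelled only by an accession or locus name were left out.

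Other genes of the pathway were less one-sided. Of 42 further genes that could be tested, 29 were higher on day 2, 25 on day 5 and 29 on day 30, with median log2 differences of 0.15, 0.07 and 0.24. None was called. At an unadjusted p under 0.05 there were 14 (12 of them higher) on day 2, 7 (5 higher) on day 5 and 11 (9 higher) on day 30, beside the shares of all probes given above. Whether the members differ from these genes was not tested.

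Among other sensors, such as NLRP1, NOD2 and IFI16, 10 of 12 could be tested, and their medians on days 2, 5 and 30 were 0.42, 0.01 and 0.18. NLRX1, a mitochondrial relative of these sensors that dampens innate signalling, was 0.99 higher on day 5 (SE 0.24, unadjusted p = 0.00368, adjusted p = 0.293 in limma), in 5 of 5 pairs. Its differences on days 2 and 30 were about as large, at 0.99 (SE 0.43) and 0.96 (SE 0.33), each higher in 4 of 5 pairs. The 3 tested genes of 5 that encode caspase-recruitment or pyrin domains alone, which hold inflammasomes back, were all higher on each day, with medians of 0.73, 0.56 and 0.39. CARD17, an inhibitor of caspase-1, was 0.77 higher on day 2 (SE 0.19, unadjusted p = 0.00407, adjusted p = 0.191 in limma), in 5 of 5 pairs. The 11 tested genes of 13 that regulate assembly, such as NEK7 and TXNIP, had medians of 0.03, 0.00 and -0.04. Single genes of this list lay apart from its median. TXNIP differed by 1.03 on day 2 (SE 0.30, unadjusted p = 0.00860, adjusted p = 0.218 in limma), 0.20 on day 5 and 0.74 on day 30. MAVS differed by -0.50 on day 2 (SE 0.20, unadjusted p = 0.0403, adjusted p = 0.311 in limma).

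The substrates and outputs of caspase-1 had medians of 0.35, 0.20 and 0.45 over 6 of 7 genes, of which 4 were higher and 2 lower on each day. IL1B, a precursor that caspase-1 cuts, had the smallest p of the pathway on day 2, at 0.86 higher (SE 0.16, unadjusted p = 0.000692, adjusted p = 0.143 in limma), in 5 of 5 pairs. IL18, the other precursor, went the other way on day 2, with a difference of -0.69 (SE 0.27, unadjusted p = 0.0350, adjusted p = 0.301 in limma), higher in 0 of 5 pairs. The 7 apoptotic caspases, which act in another form of cell death, had medians of 0.01, 0.12 and 0.24. The inhibitor of apoptosis (IAP) family, to which NAIP belongs by sequence, had medians of 0.05, 0.05 and 0.24 over 5 genes. By comparison the medians of the member caspases were 0.65, 0.47 and 1.03, those of the member sensors 0.51, 0.22 and 0.67, and the values of the adaptor 0.54, 0.45 and 0.44.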

How the data were processed

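RNA of whole blood was measured on 20 one-colour arrays, 5 per group. Per the file headers, the authors deposited Feature Extraction output (version 12.0.2.2, while the submitters' notes name 10.7) whose processed signal is a background-subtracted intensity, not normalized between arrays. The authors also deposited log2 values of 5884 probes. On each array at least 99.4% of these matched, within 0.001, the log2 of the processed signal shifted by a constant. An aligner does not apply, and the macaque genome was not used here.

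Control spots and spots marked as outliers were left out, log2 signals were averaged over a probe's spots, and each array's 75th percentile was then taken off. Probes well above background on at least 5 arrays, with values in at least 4 of 5 pairs, were tested (19961 of 34127). Each comparison used the 10 arrays of its groups in limma 3.58.1 (R 4.3.3), with the replicate number as a block. Tables were made in Python 3.11.15 (pandas 2.3.3), and figures with matplotlib 3.10.9. The fit was tested on simulated data.

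The study's methods pair the comparisons by animal, but the labels do not say that a replicate number marks an animal. Deviations from group means correlated above 0.1 in 25 of 30 pairs of arrays with the same number (range -0.16 to 0.65), and 17 of 20 arrays were closest to their own number. P-values of the main fit rest on the spread of the differences within a replicate number, among these samples only. In limma the variance of each probe is also drawn toward that of all probes. Each slide held 1 array per group, always in the same position, so that position and group cannot be told apart.

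Named genes are all members, genes of the pathway lists with an unadjusted p under 0.005 against pre-irradiation, and the 5 other genes closest to the members' mean. Probes labelled only by an accession or locus name were left out of the last choice. Further genes of the lists, such as NOD2, IL18, TXNIP and MAVS, are named as examples or to show the spread of a list. The members and lists were chosen with earlier results of these data known. Of 9 member symbols, 8 occur in the macaque RefSeq table. Precision is limited by the number of arrays. Spots well above background made up 50.9% to 67.3% of an array. Alternatives were quantile and median scaling, normexp with an offset of 50, other filters, the log2 values as deposited, a fit with no replicate block, a joint fit of all 20 arrays, a slide block, an intensity trend, other FDR limits, a paired test of each probe alone, leaving out each replicate, and the 75th percentile over averaged probes, which was chosen after seeing the data. One pathway gene is not reported here by name.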

Additional observations from a re-analysis of the deposited data

Results flagged for a closer look

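In 70 groups of 5 values (the levels of 10 member probes at 4 times and their differences from pre-irradiation on 3 days), 3 values lay farther from the others than Dixon's 95% critical ratio of 0.71. Chance alone marks about 1 group in 20, a share that 3 of 70 does not exceed. The CASP4 difference on day 5 in replicate 3 was -0.61, where the other 4 pairs lay between 0.66 and 1.0. The CASP5 difference on day 5 in the same replicate was -0.77, where the others lay between 0.59 and 0.98. Both rest on the same 2 arrays. With all 5 replicates the day 5 differences were 0.60 for CASP4 (unadjusted p = 0.0514 in limma) and 0.47 for CASP5 (unadjusted p = 0.115 in limma). Without replicate 3 they were 0.90 (unadjusted p = 0.00116 in limma) and 0.78 (unadjusted p = 0.00309 in limma). Larger values were fixed in advance by leaving out the replicate that lay apart. No member was called on day 5 when any 1 replicate was left out. The NLRP3 level of the probe A_23_P9883 on day 30 was 0.36 in replicate 1, where the others lay between 1.08 and 1.31, and replicate 1 was also the lowest array of that probe at the other times.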

How the results depend on the processing

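The members' calls moved with the fit at 30 days. Against 0 of 10 probes called, 3 were called with normexp (NAIP, CASP4 and CASP5), 3 of 9 with the deposited log2 values (the same 3 genes), 2 of 8 among probes well above background on all 20 arrays (NAIP and CASP4), 2 with an intensity trend (NAIP and CASP4), 2 with no FDR limit, and 1 (CASP4) with all 20 arrays and the replicate block, with or without the slide. Of all probes on day 30, 4.77% were called with normexp, 5.91% with the deposited log2 values and 4.53% among those well above background on all 20 arrays. The share was 2.26% with an intensity trend, 0.606% with all 20 arrays and the replicate block, and 0.0351% with the slide block added. With no FDR limit it was 3.14%. On day 2, 1 was called with the deposited log2 values (NAIP) and 0 to 1 when leaving out replicates (NLRC4 without replicate 2), and on day 5, 1 with no FDR limit. The shares of all probes in these 3 settings were 5.8%, 2.95% (without replicate 2) and 1.58%. The median over genes moved to 0.166 on day 2 and, between days 5 and 2, from -0.20 to 0.245 with normexp, while the other alternatives kept its sign on each day against pre-irradiation. Leaving out replicates gave medians of 0.43 to 0.77 on day 2, 0.35 to 0.65 on day 5 and 0.60 to 0.93 on day 30. Without the replicate block no member was called, and 2, 0 and 5 probes had an unadjusted p under 0.05 on days 2, 5 and 30 where the block gave 9, 3 and 6. At an FDR under 5% no member was called. Of the values of single genes under the alternatives, 988 kept their side of the threshold and 14 passed it. The cause of these differences was not tested. The NLRC4 signal, near background on most arrays, limits what its values can show.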
